A study of Mus musculus with 8 samples.

Results

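The genes of cholesterol and fatty acid synthesis were followed through 8 RNA-seq libraries of primary mouse vascular smooth muscle cells, which give the artery wall its tone. The set was a list of 35 genes, matched by symbol to a table of 27249 genes. Of these, 34 were found and 1, Abcg1, was not analysed here. All 34 passed the filter on low values, which asked for a normalized count of at least 1 in at least 2 libraries. The list held 5 sterol-sensing genes, 8 genes of the mevalonate and isoprenoid route, 11 genes from squalene to cholesterol, 8 genes of fatty acid synthesis and 3 genes of sterol transport.

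The cells overexpressed THOC5, part of the THO complex that links transcription to mRNA export, or, in control cells, green fluorescent protein (GFP). Both were cultured in growth medium and in osteogenic medium with inorganic phosphate, given for 6 days, which serves as a model of vascular calcification in kidney disease. That gave 4 groups of 2 libraries of polyadenylated RNA. The labels give the GFP cells the genotype WT and the others THOC5 overexpression, so every group carried an introduced gene. The age, sex and strain of the mice, the vector, and whether the 2 libraries of a group came from separate cultures are not stated in the sources used here. P-values therefore measure the spread between these libraries, which may be technical.

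Cholesterol is built from acetyl-CoA through mevalonate, isoprenoids and squalene, and fatty acids are built from the same precursor. When sterol in the endoplasmic reticulum falls, the escort protein SCAP carries the SREBP transcription factors, encoded by Srebf1 and Srebf2, to the Golgi, where proteases release their active part, and INSIG proteins hold the complex back when sterol is plentiful. When oxysterols rise, the nuclear receptor LXR activates export of cholesterol through the transporter ABCA1, and it also activates Srebf1.

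Libraries held 7058681 to 10581042 reads, and each value below is a normalized count, which means reads over 1 size factor for each library. Thoc5, the overexpressed gene, had 458 and 471 in the GFP growth libraries, 649.5 and 615 in the GFP osteogenic, 2155 and 1406 in the THOC5 growth, and 1780.2 and 1937 in the THOC5 osteogenic libraries, so its level followed the labels in every library. Reads of the introduced and the endogenous gene were not separated. The smooth muscle markers Acta2 and Cnn1, at 9489 to 25293 and 530.2 to 1683, were abundant in all libraries. Tagln, Smtn and Lmod1, from the same marker list, had 298 or more in every library. The rest of that list was lower, with Myh11 at 32.9 to 158, Des at 7.7 to 25.9 and Myocd at most 16.4. The fibroblast marker Pdgfra was also measured in all libraries, at 889 to 2485. The adipocyte markers Adipoq, Plin1, Cidec and Pck1 had no row in the table, while Fabp4 (96.3 to 128) and Pparg (89.1 to 123) were measured in all 8 libraries. Of the hepatocyte markers Alb reached at most 0.9, and Apob lay between 87.3 and 121.

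The members covered a wide range of levels. Levels per kilobase of exon used the length of all annotated exons of a gene, which can exceed that of a transcript. Fdps, for example, has 4208 exon bases and a longest coding transcript of 1382, and Acaca 17074 and 9513. The order of genes on this scale is therefore rough. Acly, which makes cytosolic acetyl-CoA from citrate, had the highest median over the 8 libraries at 347.8 (range 328.9 to 362.9). The cholesterol exporter Abca1 followed with 275.7 (147.6 to 318.7), then the desaturases Scd2 with 264.4 (202 to 408) and Fads1 with 246.3 (171.4 to 271.5), and the sterol sensor Insig1 with 228.1 (183.9 to 294.7). At the other end stood the farnesyl diphosphate synthase gene Fdps with 6.617 (4.431 to 10.67), the sterol reductase gene Tm7sf2 with 5.417 (2.235 to 6.797), and the isopentenyl diphosphate isomerase gene Idi1 with 3.014 (1.234 to 3.749). The 5 sterol-sensing genes had medians from 128.2 for Srebf2 to 228.1 for Insig1. The genes of fatty acid synthesis spread more widely, down to 29.75 for Elovl6 and 23.88 for Acaca. Fdps and Idi1 share long stretches with processed pseudogenes, over up to 76.8% and 22.6% of a transcript, and how the authors counted such reads is not stated in the sources used here, so both levels are uncertain.

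**Figure D1:**
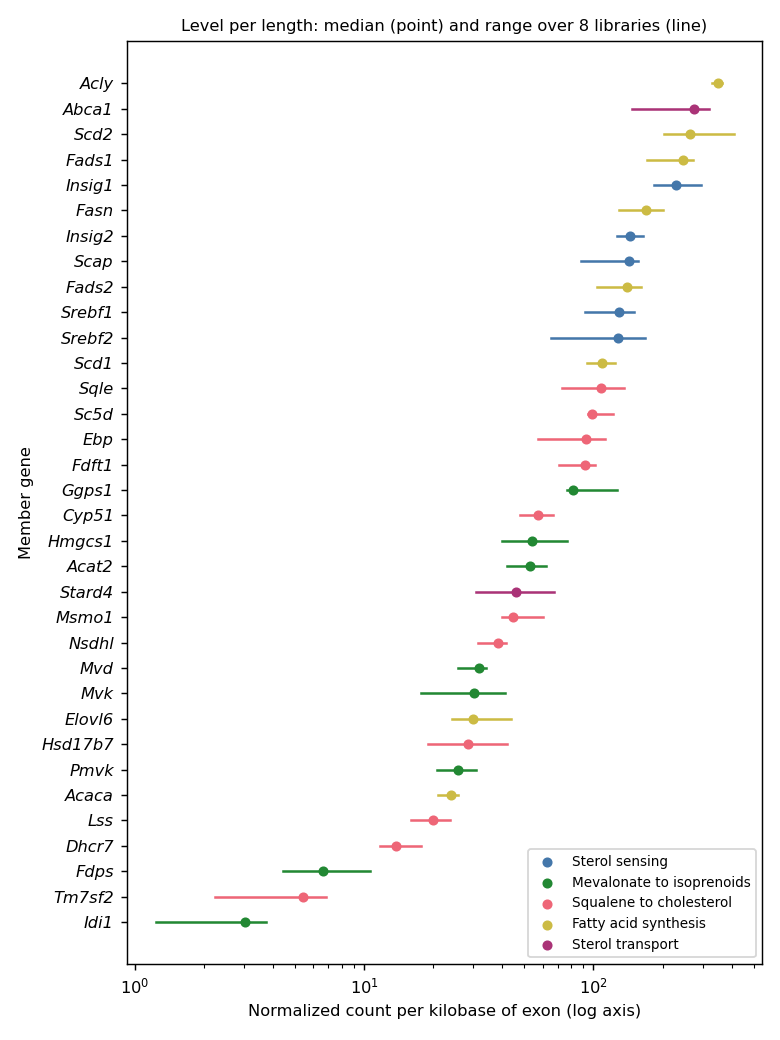
Level of each of the 34 members in normalized counts per kilobase of all annotated exons (log axis). Points are the median over 8 libraries and lines the range, coloured by role. Acly lies at the top with a median of 347.8 and Idi1 at the bottom with 3.014. On this axis the ranges are widest for Idi1 (1.234 to 3.749) and Tm7sf2 (2.235 to 6.797).

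The members with a promoter window in RefSeq (GRCm38.p6), 27 in number with 35 windows, were read for the DNA letters of known sterol and lipid regulators, and the 250 bases upstream of each start were searched on both strands. A sterol regulatory element core, TCACCCCA, bound by SREBP, was in 2 of the 35 windows, those of Srebf2 and Hmgcs1, against 1.34% of all 32851 windows. The CCAAT box, bound by NF-Y, was in 21 of 35 windows against 33.8% of all windows. The GC box GGGCGG, bound by Sp1, was in 25 of 35 against 32.7%. An LXR-type direct repeat of 17 letters, TGACCGNNAGTAACCCC, was in 3 of all 32851 windows (0.00913%), and these were the windows of Abca1, Srebf1 and Fasn. Its letters are the longest run shared by the Abca1 and Fasn windows, with those that differ in Srebf1 set to N, so the count describes how rare the run is outside the genes it was taken from. A match of letters is not a measured binding site.

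The 6 windows printed here are those of the 2 SREBP genes, of the 2 other genes with the LXR-type repeat, of Ebp, which fell and has 2 CCAAT boxes, and of Ggps1, which rose and has 3. They lie on GRCm38.p6 at chr15:82147019-82147180 (Srebf2, plus strand, trimmed to the 162 bases outside annotated exons), chr11:60210472-60210721 (Srebf1, minus strand, inside an intron of the annotated gene, before an internal start), chr4:53159896-53160145 (Abca1, minus strand), chr11:120824548-120824797 (Fasn, minus strand), chrX:8193513-8193762 (Ebp, minus strand) and chr13:14063489-14063738 (Ggps1, minus strand). Each is written 5′ to 3′ along its gene, and capitals mark TCACCCCA, CCAAT or its reverse complement ATTGG, and TGACCGNNAGTAACCCC.
Srebf2: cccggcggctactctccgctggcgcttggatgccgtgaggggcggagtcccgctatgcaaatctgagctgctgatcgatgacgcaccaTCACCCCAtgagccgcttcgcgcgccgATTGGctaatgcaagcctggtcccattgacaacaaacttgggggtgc
Srebf1: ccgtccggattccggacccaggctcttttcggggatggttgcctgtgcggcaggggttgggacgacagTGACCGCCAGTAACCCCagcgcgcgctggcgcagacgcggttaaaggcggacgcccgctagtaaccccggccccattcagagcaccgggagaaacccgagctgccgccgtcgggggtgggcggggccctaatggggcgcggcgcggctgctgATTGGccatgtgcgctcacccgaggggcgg
Abca1: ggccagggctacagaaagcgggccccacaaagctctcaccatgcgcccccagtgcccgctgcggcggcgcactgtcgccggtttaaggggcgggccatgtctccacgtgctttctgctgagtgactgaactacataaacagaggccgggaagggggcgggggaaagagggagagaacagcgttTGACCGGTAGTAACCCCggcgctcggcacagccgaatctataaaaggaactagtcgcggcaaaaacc
Fasn: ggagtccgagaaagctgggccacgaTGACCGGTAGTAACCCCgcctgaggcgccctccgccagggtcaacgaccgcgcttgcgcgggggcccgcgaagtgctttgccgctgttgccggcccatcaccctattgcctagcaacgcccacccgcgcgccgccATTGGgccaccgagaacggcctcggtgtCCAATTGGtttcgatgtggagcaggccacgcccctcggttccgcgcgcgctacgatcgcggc
Ebp: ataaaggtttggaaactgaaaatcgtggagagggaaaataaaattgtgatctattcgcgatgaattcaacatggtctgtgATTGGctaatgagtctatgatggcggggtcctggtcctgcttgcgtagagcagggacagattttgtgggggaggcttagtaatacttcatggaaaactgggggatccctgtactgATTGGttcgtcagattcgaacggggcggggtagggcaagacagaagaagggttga
Ggps1: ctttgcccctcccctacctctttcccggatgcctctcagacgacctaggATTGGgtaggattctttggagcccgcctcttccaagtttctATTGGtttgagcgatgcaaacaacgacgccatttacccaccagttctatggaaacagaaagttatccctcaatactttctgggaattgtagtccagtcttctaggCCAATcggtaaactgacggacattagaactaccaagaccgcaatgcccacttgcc

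In GFP cells, osteogenic medium lowered members of several steps of these pathways and raised a few. Of 34 members, 9 passed (26.5%) where 20.8% of all 22575 genes tested passed, at a Benjamini-Hochberg adjusted p under 0.05 from limma. Of these 7 were lower, or 20.6% of members against 10.6% of all genes, and 2 were higher, or 5.88% against 10.3%. With a stricter filter, at least 10 in 2 libraries, 13 of 34 members and 5282 of 13898 genes passed, so the shares were close. Of those members 10 were lower and 3 higher, beside 2669 and 2613 of the genes. Both osteogenic libraries lay below both growth libraries in 17 members (50.0% against 28.9% of all genes) and above them in 7 (20.6% against 27.7%). The median member change was -0.24 on the log2 scale, beside 0.00 over all genes, with 24 members below 0 and 10 above. Its size depended on the growth library used. Without GFP growth replicate 2 the member median was -0.04, with 19 members below 0 and 15 above. Without GFP growth replicate 1 it was -0.34, with 27 below 0 and 7 above. Log2 changes are of the normalized count plus 1, are given ± SE, and understate the change of low genes. Scaling by library totals, which shifts the median of all genes to 0.13, gave 5 lower and 4 higher members in place of 7 and 2. Over all 22575 genes it called 1687 lower and 3721 higher, in place of 2384 and 2314. Srebf1 and Sqle no longer passed, while the acetyl-CoA carboxylase gene Acaca and the sterol sensor Insig2 passed as higher.

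Of the 5 sterol-sensing genes 3 fell and none rose. Srebf2 (chromosome 15, 82147181 to 82205379, GRCm38), the SREBP gene that mainly drives cholesterol synthesis, stood at 852 and 990.3 in GFP growth and 496 and 468 in GFP osteogenic libraries. The THOC5 libraries held 842 and 1199 in growth and 1024 and 1029 in osteogenic medium. The GFP osteogenic libraries were thus lower than all 6 others, with no overlap. Its change in GFP cells was -0.93 ± 0.14 (limma adjusted p = 0.000914), the largest fall among the 9 members that passed.

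Scap (chromosome 9, 110333288 to 110384950), the SREBP escort, stood at 1060.5 and 961 in GFP growth, 688 and 658 in GFP osteogenic, 1093 and 1113 in THOC5 growth, and 1076 and 1159 in THOC5 osteogenic libraries. Its change in GFP cells was -0.58 ± 0.09 (limma adjusted p = 0.000713). Srebf1 (chromosome 11, 60199089 to 60222581), the SREBP gene more tied to fatty acid synthesis, stood at 732 and 719, then 571 and 519.7, then 662 and 749.7, then 802 and 843 in the same order of groups. The same 2 GFP osteogenic libraries were the lowest of the 8 for both genes, and for Srebf1 the THOC5 osteogenic libraries were the highest. The Srebf1 change in GFP cells was -0.41 ± 0.09 (limma adjusted p = 0.00901). The 2 INSIG genes did not pass: Insig1, at 569 and 891 in GFP growth, 604 and 609 in GFP osteogenic, 610.2 and 819 in THOC5 growth, and 801 and 911 in THOC5 osteogenic libraries, had a change of -0.23 ± 0.19 (limma adjusted p = 0.448), and its growth libraries overlapped the osteogenic ones. Insig2 had 0.17 ± 0.09 (limma adjusted p = 0.207). Exons of Scap overlap a low-count transcript on the opposite strand over 13.2% of their bases, and those of Srebf1 overlap Rai1 over 1.93%, which an unstranded library cannot separate; Rai1 itself had -0.15 ± 0.10 (limma adjusted p = 0.306).

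**Figure D2:**
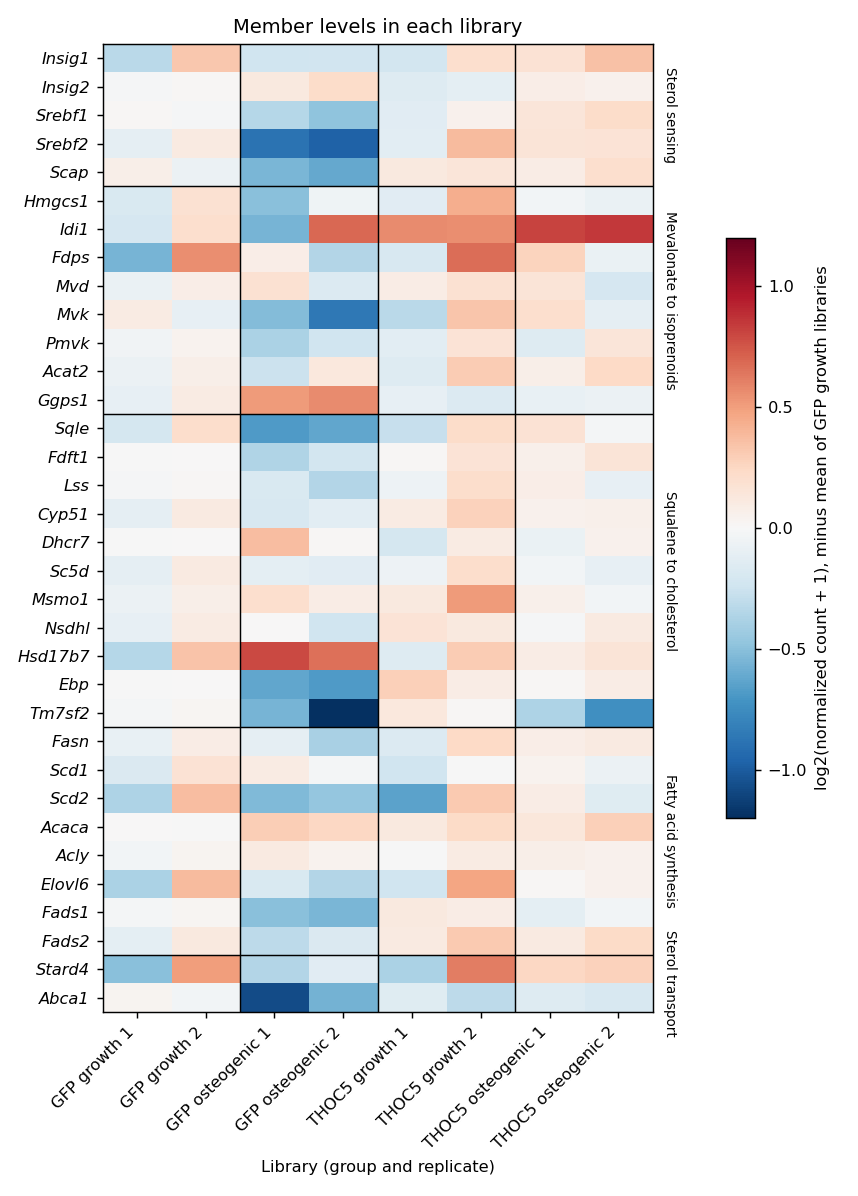
Heat map of the 34 members (rows, by role) in the 8 libraries (columns), coloured by log2(normalized count + 1) minus the mean of the 2 GFP growth libraries. The 2 GFP osteogenic columns are blue for Srebf2, Scap, Sqle, Ebp, Fads1 and Abca1 and red for Ggps1 and Hsd17b7, while the THOC5 osteogenic columns are close to white for most of these; the second growth library of each kind of cell is redder than the first for Fdps, Scd2, Elovl6 and Stard4.

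In the mevalonate and isoprenoid route, 1 of 8 genes rose and none fell in GFP cells. Ggps1 (chromosome 13, 14050659 to 14063488), which makes the geranylgeranyl diphosphate used to prenylate small GTPases, stood at 379.9 and 433 in GFP growth and 579 and 600.2 in GFP osteogenic libraries. It stood at 379 and 361 in THOC5 growth and at 381 and 386 in THOC5 osteogenic libraries. The GFP osteogenic libraries were the highest of the 8, with no overlap, and the change was 0.54 ± 0.10 (limma adjusted p = 0.00245). Ggps1 shares 5.44% of its exon bases with Arid4b on the opposite strand, which itself had 0.15 ± 0.11 (limma adjusted p = 0.375).

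Hmgcs1, the enzyme that makes HMG-CoA, stood at 229.6 and 295 in GFP growth, 184 and 250.4 in GFP osteogenic, 236 and 353 in THOC5 growth, and 254 and 246 in THOC5 osteogenic libraries. The groups overlapped, and its change in GFP cells was -0.28 ± 0.20 (limma adjusted p = 0.388). Mvk, which phosphorylates mevalonate, stood at 93.2 and 81.1 in GFP growth, 60.5 and 47.4 in GFP osteogenic, 69.5 and 109.8 in THOC5 growth, and 100 and 80.7 in THOC5 osteogenic libraries. The GFP osteogenic libraries were the lowest of the 8, yet its change in GFP cells of -0.69 ± 0.23 did not pass (limma adjusted p = 0.0593). Idi1 was near the floor of the data, at 4.3 to 13.1 in all libraries, and its change of 0.07 ± 0.47 was too uncertain to give a direction. The other 4 genes of this route, Fdps, Mvd, Pmvk and Acat2, did not pass in any comparison. Acat2 is near-identical to Acat3 over 65.6% of a transcript and to the more abundant Tcp1 over 19.8%, so its value is uncertain. In GFP cells Acat3 had -1.89 ± 0.27 (limma adjusted p = 0.000633) and Tcp1 0.06 ± 0.09 (0.683).

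Between squalene and cholesterol, 2 of 11 genes fell and 1 rose in GFP cells. Sqle, squalene epoxidase, one of the rate-limiting steps, stood at 557 and 749.7 in GFP growth, 404 and 419 in GFP osteogenic, 532 and 752 in THOC5 growth, and 731 and 635 in THOC5 osteogenic libraries. Ebp, the sterol isomerase of the later pathway, stood at 212 and 213, then 138 and 132, then 259 and 226, then 214 and 226 in the same order of groups. For both genes the GFP osteogenic libraries were the lowest of the 8, and the changes were -0.65 ± 0.17 for Sqle (limma adjusted p = 0.0176) and -0.65 ± 0.12 for Ebp (limma adjusted p = 0.00228). Hsd17b7, a ketoreductase of the C4 demethylation complex, moved the other way, at 96.7 and 156 in GFP growth, 214 and 195 in GFP osteogenic, 110.1 and 152 in THOC5 growth, and 131 and 137 in THOC5 osteogenic libraries. Its change was 0.73 ± 0.21 (limma adjusted p = 0.0316), although its 2 GFP growth libraries lay far apart.

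Fdft1, squalene synthase, stood at 382 and 385 in GFP growth, 299 and 330.0 in GFP osteogenic, 388 and 429.8 in THOC5 growth, and 401 and 428 in THOC5 osteogenic libraries. The GFP osteogenic libraries were again the lowest, but its change of -0.29 ± 0.10 in GFP cells did not pass (limma adjusted p = 0.0665). Fdft1 shares 18.3% of its exon bases with the far more abundant Ctsb on the opposite strand, a cathepsin gene whose own change was -0.22 ± 0.09 (limma adjusted p = 0.125), so the Fdft1 value may hold Ctsb reads. The other genes of this stretch, Lss, Cyp51, Msmo1, Nsdhl, Sc5d, Dhcr7 and Tm7sf2, did not pass. Their changes ran from -0.98 ± 0.34 for Tm7sf2 (limma adjusted p = 0.0646) to 0.19 ± 0.18 for Dhcr7 (limma adjusted p = 0.523). Tm7sf2 was low, at 9.8 to 29.9, and shares 12.1% of its exon bases with the more abundant Vps51 on the same strand. Vps51 itself had -0.45 ± 0.15 (limma adjusted p = 0.0561), so the Tm7sf2 value is uncertain.

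Of the 8 genes of fatty acid synthesis 1 fell and none rose in GFP cells. Fads1, the delta-5 desaturase that makes polyunsaturated fatty acids such as arachidonic acid, stood at 1188 and 1227 in GFP growth and 853 and 825 in GFP osteogenic libraries. The THOC5 libraries held 1306 and 1286 in growth and 1116 and 1183 in osteogenic medium. Its change in GFP cells was -0.52 ± 0.08 (limma adjusted p = 0.00079), and its 2 libraries agreed closely in every group. Fasn, the fatty acid synthase, stood at 1755 and 1977, then 1725 and 1419, then 1658 and 2200.4, then 1971 and 2011 in the same order, with a change of -0.25 ± 0.13 (limma adjusted p = 0.223). Scd1, the stearoyl-CoA desaturase, stood at 479 and 607, 579 and 532, 457 and 539, and 556 and 515, with 0.04 ± 0.13 (limma adjusted p = 0.869). The Scd1 libraries of the 2 media overlapped in GFP cells, and those of Fasn lay next to each other. Fads2, Acaca, Acly, Elovl6 and Scd2 did not pass either, with changes from -0.50 ± 0.27 for Scd2 to 0.27 ± 0.10 for Acaca.

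Of the sterol transport genes, Abca1 (chromosome 4, 53030787 to 53159895) fell. It stood at 3303 and 3137 in GFP growth, 1529 and 2171 in GFP osteogenic, 2909 and 2589 in THOC5 growth, and 2892 and 2823 in THOC5 osteogenic libraries. The 2 GFP osteogenic libraries were the lowest of the 8 but differed from each other by more than those of any other group, and the change was -0.82 ± 0.14 (limma adjusted p = 0.00148). Stard4, a carrier of cholesterol between membranes, had -0.25 ± 0.32 (limma adjusted p = 0.647). The sterol exporter and the SREBP genes that drive sterol synthesis were thus lower in the same 2 libraries.

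Some of these calls did not hold in other analyses. Srebf2 missed the threshold without GFP growth replicate 2 (limma adjusted p = 0.0545), Abca1 without GFP growth replicate 1 (0.0598) or 2 (0.0519), and Srebf1 without GFP growth replicate 1 (0.0753) or 2 (0.0699) or GFP osteogenic replicate 2 (0.0653). Sqle missed it without GFP growth replicate 2 (0.235) or either GFP osteogenic library (0.162 and 0.103), or with any value above 0 admitted (0.0686). Hsd17b7 missed it without GFP growth replicate 1, where its change was 0.39 (0.26), without either GFP osteogenic library (0.228 and 0.12), or without either THOC5 osteogenic library (0.0737 and 0.0738). Hsd17b7 also missed it with only the 4 libraries compared (0.0823) and with any value above 0 admitted (0.088). Ebp, Fads1, Scap and Ggps1 passed in every alternative analysis.

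Most of the smooth muscle marker list moved with these genes, with 6 of 8 lower in GFP cells in osteogenic medium. The other 2, Myocd and Des, were low and had changes above 0 that did not pass. Their GFP means were 12.56 and 9.979 in growth and 15.82 and 22.36 in osteogenic libraries. The sum of all 8, mostly Acta2, went from 28391 and 24495 in GFP growth to 11925 and 13801 in GFP osteogenic libraries. In THOC5 cells the sums were 30387 and 31012 in growth and 24999 and 26851 in osteogenic libraries. Of 6 fibroblast markers 2 were lower (sums 4689 and 4532, then 2878 and 3747), and of 5 macrophage markers tested 2 were lower and 1 higher (1182 and 946, then 695 and 680), with Ptprc, Adgre1 and Itgam at or near 0. Of 4 endothelial markers tested 1 was lower, Vwf, at 99.1 and 58.5 in GFP growth, 12.1 and 9.8 in GFP osteogenic, 106 and 84.0 in THOC5 growth, and 60.9 and 64.8 in THOC5 osteogenic libraries. The endothelial sums were 117 and 75.8, 55.4 and 36.7, 122 and 91.7, and 87.2 and 84.5 in the same order. The median change of the 4 endothelial markers in GFP cells was 0.52, with 2 above 0 and 2 below. Kdr, for example, had means of 9.314 in GFP growth and 22.83 in GFP osteogenic libraries and did not pass. The adipocyte sum stayed between 203 and 244 in all 8 libraries and the hepatocyte sum between 87.3 and 121. The part of these markers in the result was not tested. In RNA from whole cultures, fewer cells of a type and less RNA per cell cannot be told apart.

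**Figure D3:**
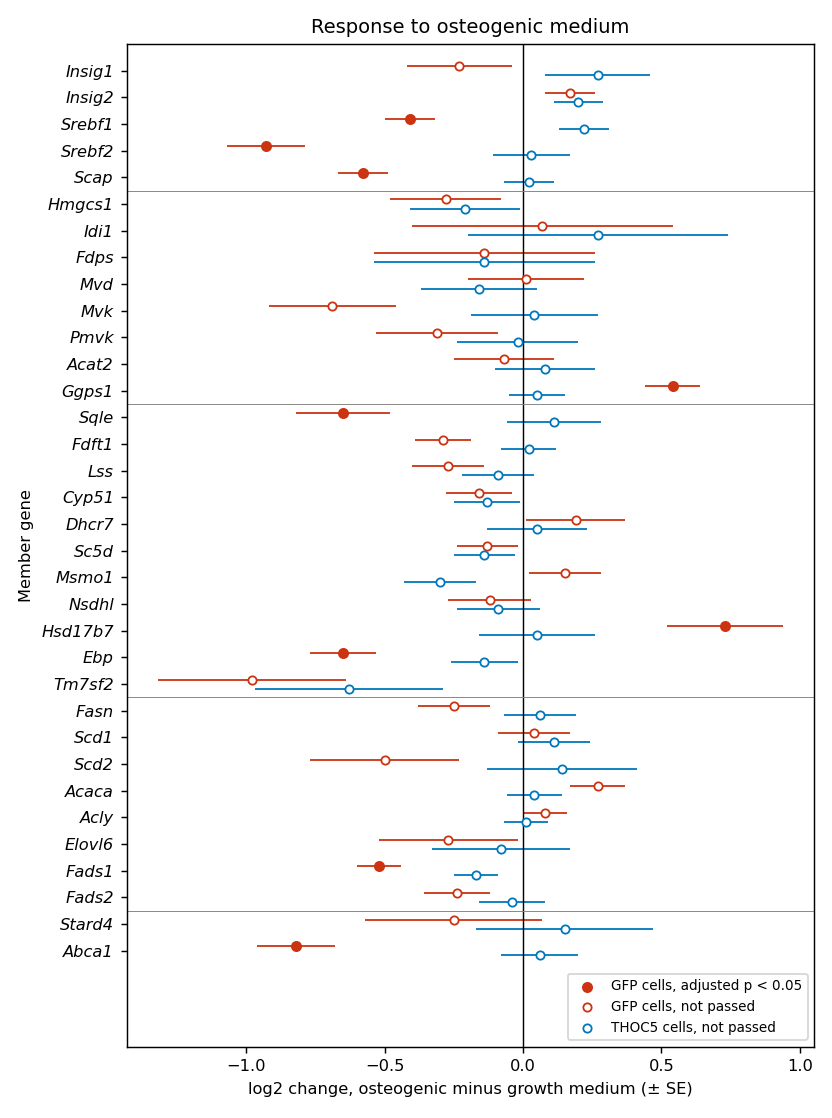
Log2 change from growth to osteogenic medium (± SE, limma, 2 libraries against 2) for each member in GFP cells (red) and THOC5 cells (blue); filled points passed an adjusted p of 0.05. Srebf2 lies at -0.93 in GFP cells and 0.03 in THOC5 cells, and no THOC5 point passed.

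In THOC5 cells none of the 34 members passed for osteogenic against growth medium, where 0.540% of all genes did. At an unadjusted p under 0.05 there were 4 members, beside 1282 of 22575 genes. Both edgeR and DESeq2 called 0 members, beside 159 and 149 genes. The median member change was 0.03, with 20 above 0 and 14 below. Srebf2 had 0.03 ± 0.14 (limma adjusted p = 0.998), Scap 0.02 ± 0.09 (0.998), Abca1 0.06 ± 0.14 (0.982) and Ggps1 0.05 ± 0.10 (0.976). The 5 sterol-sensing genes all lay above 0, up to 0.27 ± 0.19 for Insig1 and 0.22 ± 0.09 for Srebf1, and the lowest member was Tm7sf2 with -0.63 ± 0.34.

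In growth medium 0 of 34 members passed between THOC5 and GFP cells, where 0.00443% of all genes did. At an unadjusted p under 0.05 there was 1 member, beside 1152 of 22575 genes. Both edgeR and DESeq2 called 0 members, beside 1 gene each. Changes ran from -0.23 ± 0.14 for Abca1 to 0.56 ± 0.47 for Idi1, with a median of 0.08. Srebf2 had 0.13 ± 0.14 (limma adjusted p = 0.953) and Hmgcs1 0.15 ± 0.20 (0.967).

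In osteogenic medium 10 genes of sterol sensing, synthesis, desaturation and export were higher in THOC5 than in GFP cells. Of 34 members 11 passed (32.4%) where 22.0% of all genes passed. Of these 10 were higher (29.4% against 11.3%) and 1 was lower (2.94% against 10.7%). With the filter of at least 10 in 2 libraries, 14 of 34 members and 5543 of 13898 genes passed, so the shares were close. Of those members 12 were higher and 2 lower, beside 2854 and 2689 of the genes. Both THOC5 libraries lay above both GFP libraries in 20 members (58.8% against 30.8% of all genes) and below them in 4 (11.8% against 28.6%), and the median member difference was 0.30 beside 0.00 for all genes. This comparison shares its GFP libraries with the response of GFP cells described above, so its values stand beside that response and are not a second observation of it.

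The largest difference among members that passed was that of Srebf2. The THOC5 cells had more Srebf2 (1.09 ± 0.14, limma adjusted p = 0.000304), Scap (0.73 ± 0.09, 0.000158) and Srebf1 (0.59 ± 0.09, 0.00101), with 1024 and 1029 normalized counts against 496 and 468 for Srebf2. Along the synthesis route they had more Mvk (0.73 ± 0.23, 0.0435), Fdft1 (0.40 ± 0.10, 0.0152), Sqle (0.72 ± 0.17, 0.00943) and Ebp (0.70 ± 0.12, 0.00132), and less Ggps1 (-0.62 ± 0.10, 0.000945). The desaturases Fads1 (0.45 ± 0.08, 0.00175) and Fads2, the delta-6 enzyme (0.41 ± 0.12, 0.0246), were higher, the latter at 461 and 501 against 342 and 379 counts, with 393 and 463 in GFP growth and 459 and 529 in THOC5 growth libraries. The exporter Abca1 was higher by 0.65 ± 0.14 (limma adjusted p = 0.00546). Ctsb, which overlaps Fdft1, was also higher (0.29 ± 0.09, limma adjusted p = 0.0453).

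Other members did not pass in this comparison. Insig1 had 0.49 ± 0.19 (limma adjusted p = 0.0857), Fasn 0.35 ± 0.13 (0.09), Hsd17b7 -0.61 ± 0.21 (0.0656), Hmgcs1 0.22 ± 0.20 (0.512), Idi1 0.76 ± 0.47 (0.303) and Scd1 -0.05 ± 0.13 (0.828). The authors' deposited table called 13 members in this comparison, 11 higher and 2 lower. Of the 14042 genes with an adjusted p there, it called 4182, with 2188 higher and 1994 lower. Against the limma calls, the authors' deposited table adds Insig1 (adjusted p = 0.02413), Fasn (0.04666) and Hsd17b7 (0.04196) and lacks Mvk (0.05724). DESeq2 on the recovered reads gave the same counts as the authors' table, 4182 genes and 13 members. The 2 are therefore not separate checks. Scaling by library totals, which moves the median of all genes to -0.16, gave 7 higher and 3 lower members. Over all 22575 genes it called 1662 higher and 4065 lower, in place of 2550 and 2413. Mvk, Fdft1 and Fads2 no longer passed, and Hsd17b7 and Insig2 passed as lower.

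Ebp, Fads1, Ggps1, Scap, Srebf1 and Srebf2 passed in every alternative analysis of this comparison. Abca1 missed the threshold without THOC5 osteogenic replicate 1 (limma adjusted p = 0.0655) or 2 (0.0666). Sqle missed it without any 1 of the 4 osteogenic libraries (0.0599 to 0.115), as did Fads2 (0.0572 to 0.199), and Fdft1 without GFP osteogenic replicate 1 (0.113) or THOC5 osteogenic replicate 1 (0.0579) or 2 (0.137). Mvk missed it without any 1 of the 4 osteogenic libraries (0.101 to 0.266) or without either GFP growth library (0.104 for each). With all 8 libraries, Mvk also missed it with any value above 0 admitted (0.0931) and in DESeq2 (adjusted p = 0.0572), and Fads2 with any value above 0 admitted (0.0549).

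Markers of cell types moved with this comparison too. Of 8 smooth muscle markers 6 were higher in THOC5 cells in osteogenic medium and 2 lay below 0 (median difference 0.84). The sums of the 8, mostly Acta2, were 24999 and 26851 against 11925 and 13801. Of 6 fibroblast markers 3 were higher and all 6 lay above 0 (median difference 1.29), with sums of 6461 and 6366 against 2878 and 3747. Of 5 macrophage markers tested 2 were higher and 1 lower (961 and 1139 against 695 and 680), and of 4 endothelial markers 1 was higher and 1 lower (87.2 and 84.5 against 55.4 and 36.7). Their part in the result was not tested.

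**Figure D4:**
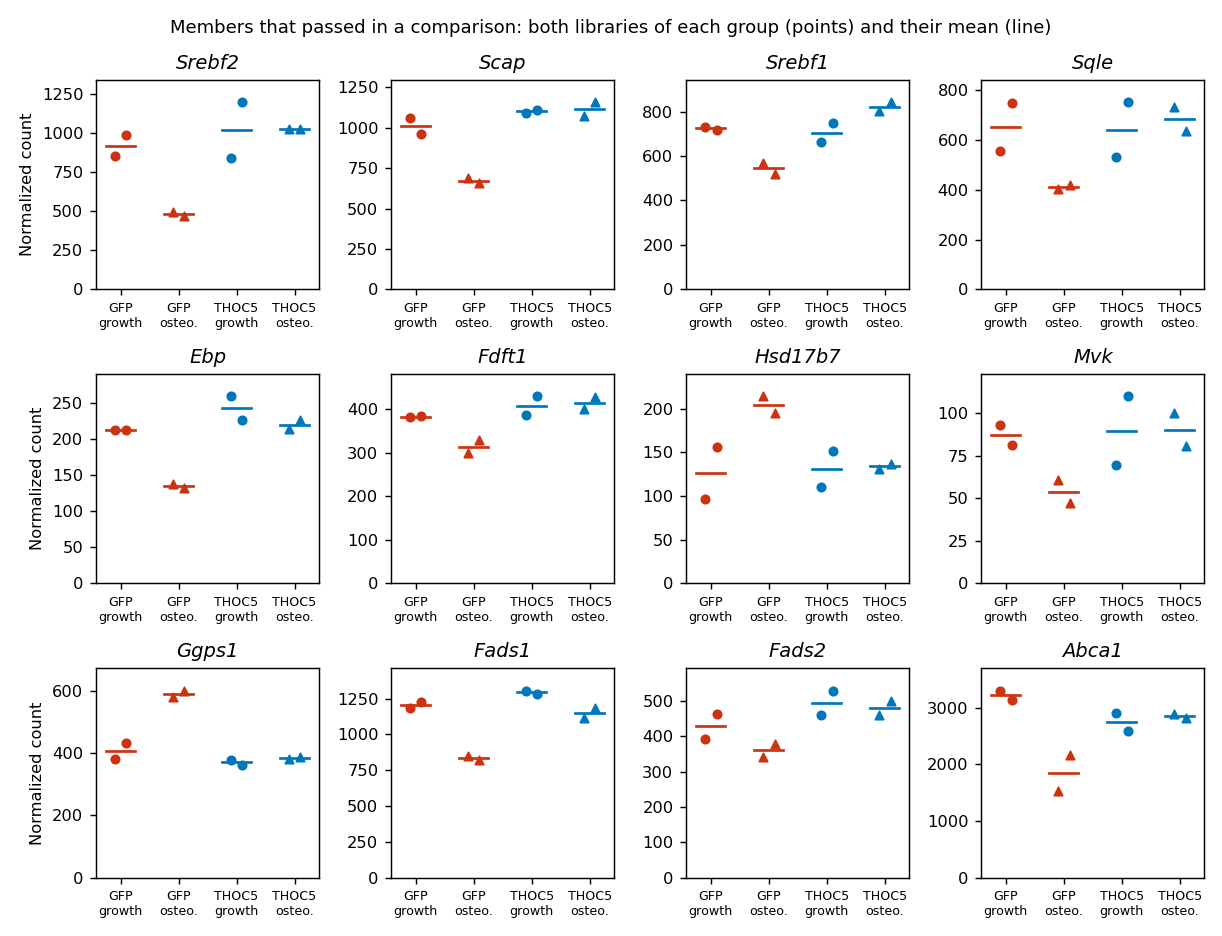
Normalized counts of the 12 members that passed in at least 1 comparison, in each library (points; circles for growth, triangles for osteogenic medium) with the mean of each group (line), GFP in red and THOC5 in blue, each axis starting at 0. The 2 GFP osteogenic points lie apart from the other 6 for Srebf2 (496 and 468), Scap (688 and 658), Ebp (138 and 132) and, above them, Ggps1 (579 and 600.2).

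The difference between the 2 medium responses was tested directly as an interaction, which is positive where the THOC5 response exceeds the GFP response. It passed for 5 of 34 members (14.7%), where it passed for 9.22% of all genes. It was positive for Srebf2, Abca1, Srebf1 and Scap (11.8% of members against 5.30% of all genes) and negative for Ggps1 (2.94% against 3.92%). Others missed the threshold, such as Sqle (0.76 ± 0.24, limma adjusted p = 0.0728), Ebp (0.52 ± 0.16, 0.0762) and Fads1 (0.35 ± 0.11, 0.074). With the filter of at least 10 in 2 libraries, 7 of 34 members and 2814 of 13898 genes passed, so the shares were close. Of those members 6 were positive and 1 negative, beside 1578 and 1236 of the genes. Leaving out any 1 library, which leaves its group with 1, lowered the number of calls among members and among all genes alike. That loss of calls was therefore not particular to the members. The median member interaction was 0.19 with all libraries kept. It ran from 0.04 when GFP growth replicate 2 was dropped to 0.35 when THOC5 growth replicate 2 was dropped.

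Genes that act beside the members in the same pathways were read from 6 further lists with 95 genes, of which 94 were tested; Mlxipl was not analysed here. In GFP cells osteogenic medium raised 16 (17.0%) and lowered 15 (16.0%) of the 94, beside 10.3% higher and 10.6% lower of all genes. In THOC5 cells it changed 0 (0.540% of all genes), and in growth medium 0 differed between THOC5 and GFP cells (0.00443%). In osteogenic medium 17 (18.1%) were higher and 19 (20.2%) lower in THOC5 than in GFP cells, beside 11.3% and 10.7% of all genes. The counts for the single lists below stand beside the same percentages. Those percentages include genes with few reads. With the filter of at least 10 in 2 libraries, 2613 of 13898 genes rose and 2669 fell in GFP cells. In osteogenic medium 2854 were higher and 2689 lower in THOC5 cells. The lists were not counted with that filter, so an excess of the lists over well-measured genes was not shown.

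Of 17 genes of sterol uptake and storage, 5 fell and none rose in GFP cells. Lrp1, a lipoprotein and scavenger receptor, stood at 53458 and 54208 in GFP growth, 16514 and 20906 in GFP osteogenic, 53093 and 54862 in THOC5 growth, and 47342 and 51282 in THOC5 osteogenic libraries (-1.53 ± 0.13 in GFP cells, limma adjusted p = 2.12e-05). Apoe, the lipoprotein that accepts cholesterol from ABCA1, had -1.12 ± 0.14 (limma adjusted p = 0.000291), and Cyp7b1, an oxysterol hydroxylase, -1.22 ± 0.14 (0.00015). All 3 were higher in THOC5 than in GFP cells in osteogenic medium, by 1.41 ± 0.13, 1.21 ± 0.14 and 1.09 ± 0.14 in that order.

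Of 14 further sterol-sensing genes, 4 fell and 1 rose in GFP cells. Mbtps1, the site-1 protease that cuts SREBP in the Golgi, stood at 2784 and 2656 in GFP growth and 1719 and 1866 in GFP osteogenic libraries (-0.60 ± 0.08, limma adjusted p = 0.000382), and at 2994 and 2983, then 2695 and 2861 in THOC5 cells. Mylip, a ubiquitin ligase gene activated by LXR, had -0.86 ± 0.16 (limma adjusted p = 0.00271; 0.0737 without GFP growth replicate 1), and Rnf145, a sterol-responsive ubiquitin ligase, -0.51 ± 0.09 (0.00164). Of 8 further genes of sterol synthesis 2 fell and 2 rose. They included Cyb5r3, which supplies electrons to desaturation steps (-0.81 ± 0.08, 7.38e-05), and Pgrmc1, a haem-binding partner of CYP51 (0.33 ± 0.09, 0.029). The Pgrmc1 call was lost in 7 of 18 alternatives, among them only the 4 libraries compared (limma adjusted p = 0.0948), any value above 0 (0.0568), and the loss of GFP growth replicate 1 (0.17), either GFP osteogenic library or either THOC5 osteogenic library.

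Among the other isoprenoid and fatty acid genes, most of those that passed in GFP cells were higher. Of 10 isoprenoid genes 3 rose and none fell: Rabggtb, a subunit of the enzyme that geranylgeranylates Rab proteins (0.84 ± 0.11, limma adjusted p = 0.000329), and Pdss1 and Pdss2, which make the side chain of ubiquinone (0.76 ± 0.24, 0.041, and 0.86 ± 0.21, 0.0129). The Pdss1 call was lost in 11 of 18 alternatives, namely without any 1 of the 8 libraries (limma adjusted p up to 0.236), with only the 4 libraries compared (0.0728), with any value above 0 admitted (0.0514) and in DESeq2 (0.127). The Pdss2 call was lost in 4, without any 1 of the GFP libraries (0.0554 to 0.154). Rabggtb stood at 354 and 316 in GFP growth, 634 and 568 in GFP osteogenic, 376 and 331 in THOC5 growth, and 343 and 369.8 in THOC5 osteogenic libraries, with GFP osteogenic highest as for Ggps1. Of 27 fatty acid genes 7 rose and 1 fell. Among them were the malic enzyme gene Me1, a source of NADPH, at 282 and 320.4, 574 and 526, 328 and 287, and 303 and 298 (0.87 ± 0.11, limma adjusted p = 0.000268), Elovl4, which elongates very long chains (1.79 ± 0.28, 0.00105), and Hacd3, a dehydratase of elongation (0.57 ± 0.10, 0.00215).

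The 2 growth libraries of a group differed more for the members than for genes at large. Among genes with a mean of at least 50, replicate 2 exceeded replicate 1 in both kinds of cells for 21 of 30 members (70.0%) and for 27.6% of 10655 genes. The ratio of replicate 2 to replicate 1 was 2.01 in GFP and 1.99 in THOC5 cells for Stard4 (172 and 347, 187 and 374), 1.67 and 1.94 for Scd2 (1331 and 2229, 1103 and 2139), and 1.69 and 1.64 for the elongase gene Elovl6 (155 and 263, 171 and 281). For Insig1 it was 1.57 and 1.34. In osteogenic medium the corresponding libraries were closer, for example 191 and 222, and 289.9 and 297, for Stard4. Across the 30 members the log2 differences in the 2 growth groups had a Pearson r of 0.70, and in the 2 osteogenic groups 0.23. Over all 10655 genes r was 0.402 in the growth and -0.008 in the osteogenic groups. These values describe genes that share the same 4 libraries. The median absolute difference was 0.18 in GFP and 0.25 in THOC5 growth for these members, and 0.13 in both for all genes. The labels do not say what replicate 1 or replicate 2 have in common, and none of these differences was tested. Stard4 and Scd2 had wide errors in the medium comparisons (± 0.32 and ± 0.27).

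**Figure D5:**
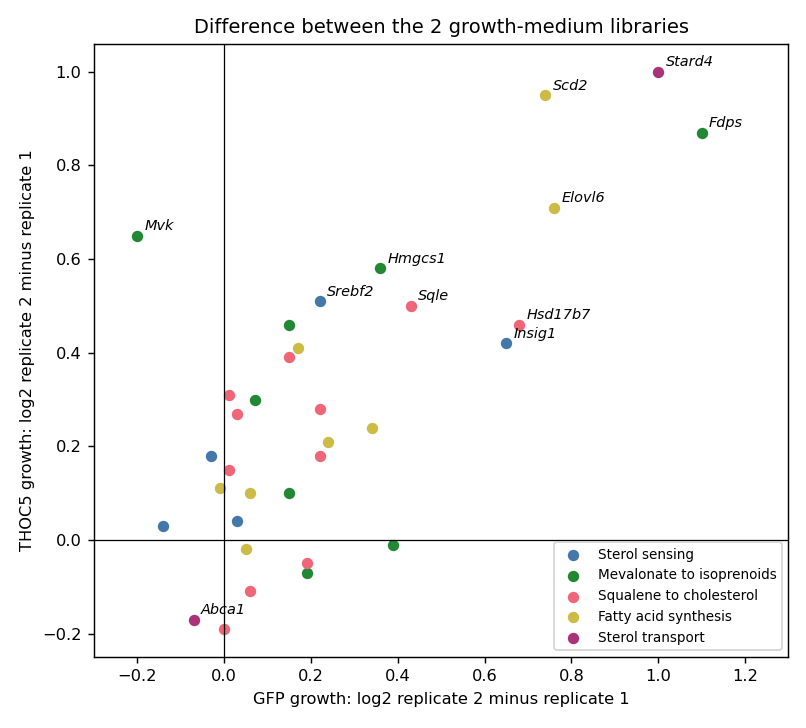
Log2 difference between replicate 2 and replicate 1 in growth medium for each member, GFP cells on the x axis and THOC5 cells on the y axis, coloured by role. Stard4, Fdps, Scd2 and Elovl6 lie at the upper right, higher in replicate 2 of both kinds of cells, and Abca1 lies at the lower left.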

How the data were processed

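Polyadenylated RNA of 8 libraries was measured in 4 groups of 2, grouped by sample title and matched to columns by the description field. The TruSeq kit used, per the labels' protocols, keeps no strand information. The deposited table holds a signal per gene, which is the read count divided by a size factor per library. Multiplying the authors' values by that factor gave whole reads for 100% of values (tolerance 1e-06). Per the file headers, the authors added for 4 comparisons a log2 change, its p-value raw and adjusted, and as further scores its standard error and test statistic. Their test statistics and mean columns were not used. FastQC, Bowtie2, MACS2, SAMtools and mm10 are named without roles, per the submitters' processing notes, while read counting and annotation are not stated in the sources used here.

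limma 3.58.1 (R 4.3.3, trend option) was fitted to log2 of the normalized count plus 1 over all 8 libraries, with 4 residual degrees of freedom, for 22575 genes (at least 1 in 2 or more libraries). The 5 contrasts were adjusted separately by Benjamini-Hochberg with a threshold of 0.05. Alternatives were TMM and library-total scaling, other pseudocounts and filters, each library left out, only the 4 libraries compared, a replicate block, and edgeR 4.0.16 and DESeq2 1.42.0 on recovered reads. The fit was tested on simulated data. A count of 0 allows up to 3 reads, or 2.5946 to 3.9879 normalized counts, which covers counting error only. Coordinates and exon lengths came from GENCODE on GRCm38, and promoters from RefSeq.

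The members and lists were chosen with earlier results of these data known. Values are given for a core of members and each member that passed in any contrast, and for up to 3 genes of each further list with the smallest adjusted p. Genes of these lists that would have been named by this rule but are left out of the text are not reported here.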

Additional observations from a re-analysis of the deposited data

Results flagged for a closer look

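For 5 members the response to osteogenic medium differed between THOC5 and GFP cells by the limma interaction test (± SE, on the log2 scale, 2 libraries in each of 4 groups). The difference was 0.96 ± 0.20 for Srebf2 (limma adjusted p = 0.0136), 0.88 ± 0.19 for Abca1 (0.0168), 0.64 ± 0.13 for Srebf1 (0.0134), 0.60 ± 0.12 for Scap (0.0116) and -0.49 ± 0.14 for Ggps1 (0.0485). For the first 4 both GFP osteogenic libraries were the lowest of the 8, and for Ggps1 the highest. Each of these calls was lost with some library left out: over the alternatives the adjusted p ran from 0.000323 to 0.145 for Srebf2, from 0.000203 to 0.134 for Abca1, from 0.00547 to 0.105 for Srebf1, from 0.00282 to 0.0987 for Scap and from 0.024 to 0.167 for Ggps1. The libraries whose loss ended a call were both GFP growth libraries for each of the 5. To these were added both GFP and both THOC5 osteogenic libraries for Srebf2, both THOC5 growth and both THOC5 osteogenic libraries for Abca1, THOC5 growth replicate 1 and both THOC5 osteogenic libraries for Srebf1, THOC5 growth replicate 1 and THOC5 osteogenic replicate 2 for Scap, and all other libraries for Ggps1. With all 8 libraries kept, the Ggps1 call was also lost in DESeq2 (adjusted p = 0.084), with the replicate number as a block (0.0517), with a pseudocount of 0.5 (0.0507) and with any value above 0 admitted (0.0707). Abca1 (0.0751) and Srebf2 (0.0659) were also lost with any value above 0 admitted.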

How the results depend on the processing

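Of 25 member calls over the 5 comparisons, 10 passed in every alternative, 15 were lost in at least 1 and 0 changed direction. The cause of the changes was not tested, beyond the fewer libraries or the more genes tested that an alternative has by construction. With each library left out in turn, the members called ran from 5 to 10 in the GFP response, from 6 to 11 for THOC5 against GFP in osteogenic medium and from 0 to 4 in the interaction. All genes called ran from 2067 to 4496, from 1987 to 4753 and from 0 to 1751 in the same order, from 8 to 106 in the THOC5 response and from 0 to 1 in growth medium. With any value above 0 admitted, the interaction called 2 members and 1122 genes, the THOC5 response 37 genes and the growth comparison 0, and with only the 4 libraries compared the growth comparison also called 0 genes. Differences of members that had not passed changed sign without 1 library. The osteogenic difference of Hmgcs1 went to -0.00 without GFP osteogenic replicate 1 (up to 0.44 with others left out). The GFP response of Idi1 went to -0.13 without GFP growth replicate 1 and -0.56 without GFP osteogenic replicate 2 (up to 0.69), that of Insig1 to 0.09 without GFP growth replicate 2 (down to -0.55), and that of Scd1 to -0.13 without GFP growth replicate 1 and -0.02 without GFP osteogenic replicate 1 (up to 0.21). The osteogenic difference of Scd1 went to 0.01 without GFP osteogenic replicate 1 and 0.00 without THOC5 osteogenic replicate 2 (down to -0.11). Replicate numbers were not shown to pair the libraries across all groups. Over 10655 genes, replicate differences had a correlation of 0.402 between the 2 growth groups. Between the other pairs of groups it ran from -0.188 to 0.136. With the replicate number as a block, 9 members were called in the GFP response, 13 in the osteogenic comparison and 5 in the interaction, and 0 in the others. The osteogenic comparison gained Insig1 and Hsd17b7, and the interaction lost Ggps1 (adjusted p = 0.0517) and gained Sqle. Depth limits Idi1 most, at 4.3 to 13.1 normalized counts.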

Other observations

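Genes of glycerolipid synthesis, storage and breakdown also changed in GFP cells in osteogenic medium, with 3 of 18 higher and 3 lower. All genes had 10.3% and 10.6%, and the 13898 genes with at least 10 in 2 libraries had 2613 higher and 2669 lower. Plin2, a coat protein of lipid droplets, stood at 1212 and 1188 in GFP growth, 4227 and 2953 in GFP osteogenic, 1127 and 935 in THOC5 growth, and 1268 and 1324 in THOC5 osteogenic libraries. Its change was 1.56 ± 0.14 in GFP cells (limma adjusted p = 3.64e-05) and 0.34 ± 0.14 in THOC5 cells (0.871), and the interaction was -1.22 ± 0.20 (0.00498). The interaction missed the threshold without GFP growth replicate 1 (limma adjusted p = 0.0812) or 2 (0.0957) or THOC5 osteogenic replicate 2 (0.0596). Mgll, a lipase of monoacylglycerols, stood at 642 and 722, then 285 and 381, then 622 and 633, then 692 and 686, with -1.05 ± 0.13 in GFP cells (limma adjusted p = 0.000206). Lpin2, a phosphatidate phosphatase, had 0.41 ± 0.09 (limma adjusted p = 0.00569), a call lost without GFP growth replicate 2 or GFP osteogenic replicate 1 (highest adjusted p 0.0589). The adipocyte markers did not move with Plin2: Fabp4 lay between 96.3 and 128 and Pparg between 89.1 and 123 in all 8 libraries.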
